A study of Arabidopsis thaliana with 10 samples.

Results

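Dark-grown Arabidopsis seedlings whose synthesis of 2 growth hormones was blocked were compared under 1 of 2 growth signals: an always-active form of the transcription factor BZR1, or applied gibberellin. The comparison sets the dominant mutant bzr1-1D against wild type given GA3, and takes in 4 of the 10 sequenced samples, 2 on each side. It was chosen by the labelled genotype and treatment and covers every gene row of the deposited tables, of which 19762 of 33518 held enough reads to be fitted. Growth was in darkness throughout, for 4.5 days, and the medium held paclobutrazol (PAC, 1 µM), which blocks gibberellin synthesis, and propiconazole (PPZ, 2 µM), which blocks brassinosteroid synthesis. The bzr1-1D seedlings then received a mock solution and the wild type 10 µM GA3, each for 12 hours. The wild type on the same media with mock (2 samples, called mock below) served as the common point of reference, and the labels give hypocotyl as the tissue and Col-0 as the ecotype throughout. The other 4 samples, wild type on PAC without PPZ with mock or GA3, entered the last comparison, the count of genes read in 1 genotype only, and an alternative fit of all 10 libraries.

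Gibberellin acts by removing the DELLA proteins, which hold growth factors inactive. Brassinosteroid acts through a kinase cascade that ends with the release of BZR1 and its relative BES1 from phosphorylation by the kinase BIN2. DELLA proteins bind BZR1 as well as the PIF factors, so that both hormones meet on the same group of growth regulators in the elongating hypocotyl. In bzr1-1D a point mutation keeps BZR1 dephosphorylated and stable even where brassinosteroid is scarce, but PAC is expected to leave the DELLA proteins in place. In the GA3-treated wild type the DELLA proteins are expected to be removed, but PPZ to leave active BZR1 protein low. Neither protein was measured here. Each hormone also limits its own synthesis, which gives each side of the comparison a known set of reporter genes.

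Several features limit what the groups can show. Genotype and GA3 differ together, so each difference may come from either. The allele was present throughout growth, whereas GA3 was given only in the treatment that followed. Lasting and short-term effects therefore cannot be told apart from the kind of signal, and this was not tested. The allele and any other difference of the 1 mutant line from the wild type cannot be told apart. The allele changes the protein, so the BZR1 transcript (AT1G75080) does not check the label: it was at 567 and 616 normalized reads in the bzr1-1D libraries and 541 and 528 with GA3, a difference that was not called (log2 difference 0.16 ± 0.08 (limma-voom adjusted p = 0.125)). The labels do not say that a sample and its repeat came from separate cultures, so p-values reflect only how far these libraries lie apart, and that spread may be technical. In bulk RNA fewer cells of a type and less RNA per cell cannot be told apart. No source used here says whether counting used strand, so reads of a gene and of an antisense or overlapping partner cannot be told apart. The hypocotyl has no marker of its own among the lists read here, and photosynthesis, seed reserve and root transcripts were all present.

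The deposited tables give a mean of 2 libraries per group, and whole reads of each library were recovered from those means. Where a mean had several solutions the pair of closest libraries was preferred, so the spread between libraries may be understated. The 4 libraries compared held 12573909 to 16355626 reads in the genes whose reads could be recovered, and the other 6 held 8093386 to 16502393. With GA3 on PPZ these totals leave out 20 abundant genes. For genes averaging 1000 normalized reads or more, the standard deviation of the log2 ratio between the libraries of a pair was 0.16 in bzr1-1D. It was 0.09 with GA3 or with mock on PPZ. On PAC without PPZ it was 0.12 with GA3 and 0.24 with mock, the widest of all groups. That mock pair is the reference for both contrasts of the last comparison. Normalized reads are given below for the deeper library first and the shallower second. Log2 differences are bzr1-1D minus GA3 with their standard error (SE) from limma-voom, and a gene is called where its Benjamini-Hochberg adjusted p over all 19762 genes is under 0.05. With 2 libraries a side no rank or permutation test of a single gene can reach that threshold, so the calls rest on the spread shared across genes.

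The 2 groups had widely different transcriptomes. Of the 19762 genes, 4195 were higher in bzr1-1D (21.2%) and 4077 were higher with GA3 (20.6%), together 41.9%. At least 2-fold differences numbered 1113 toward bzr1-1D (5.63%) and 940 toward GA3 (4.76%), together 10.4%, and at least 4-fold differences 296 (1.50%) and 285 (1.44%), together 2.94%. The libraries of both groups did not overlap for 14049 genes, 71.1% of those fitted, which is the background for each gene below that is said not to overlap. Each list of genes is read against these shares and against the median difference of all genes, which was 0.00. The lists were chosen with earlier results of these data known, and their counts are descriptions without a test of the list.

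**Figure D1:**
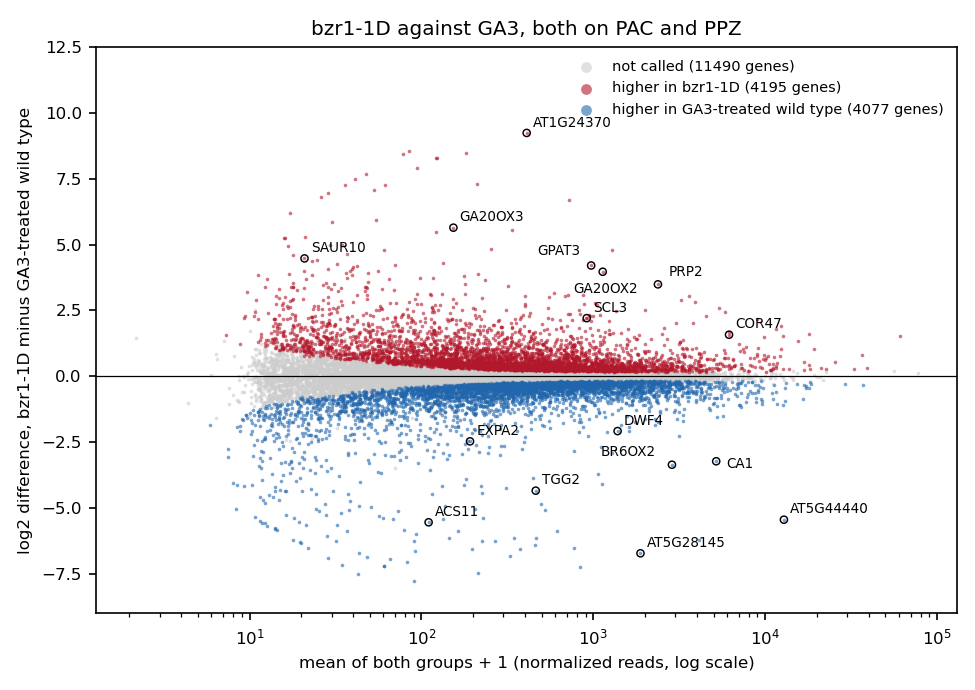
Each point is 1 fitted gene, with the mean of both groups plus 1 in normalized reads on a log axis against the log2 difference, bzr1-1D minus GA3-treated wild type. Called genes lie on both sides in nearly equal number, 4195 and 4077, and circled genes are described in the text.

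Synthesis genes of each hormone were lower on the side where that hormone's own signal was active: those of brassinosteroid in bzr1-1D and those of gibberellin with GA3. Of the 7 genes of brassinosteroid synthesis, all fitted, 5 were higher with GA3 and 0 were higher in bzr1-1D, with a median difference of -1.62. BR6OX2 (AT3G30180), whose product makes brassinolide in the last step, was at 513 and 495 normalized reads in bzr1-1D, 5253 and 5189 with GA3 and 5656 and 5548 with mock. It differed by -3.36 ± 0.07 (limma-voom adjusted p = 4.94e-11), and the bzr1-1D libraries lay far below all 4 wild-type libraries on these media while GA3 and mock were close. DWF4 (AT3G50660), the rate-limiting C-22 hydroxylase, was at 517 and 532 normalized reads in bzr1-1D, 2215 and 2264 with GA3 and 1383 and 1480 with mock. Here the 3 groups were apart, with bzr1-1D lowest, mock between and GA3 highest, and the difference was -2.08 ± 0.07 (limma-voom adjusted p = 2.58e-09).

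CPD, a cytochrome P450 of the same pathway, was at 4221 and 4173 normalized reads in bzr1-1D, 6791 and 7036 with GA3 and 6157 and 5891 with mock, a difference of -0.71 ± 0.06 (limma-voom adjusted p = 3.74e-06). BR6OX1, the close relative of BR6OX2, was at 46.8 and 54.0 normalized reads in bzr1-1D, 286 and 327 with GA3 and 156 and 153 with mock, a difference of -2.57 ± 0.16 (limma-voom adjusted p = 2.67e-07). Both followed the order seen for DWF4, with no overlap between groups. CYP90D1, a C-23 hydroxylase, was at 85.5 and 85.2 in bzr1-1D and 279 and 251 with GA3 (log2 difference -1.62). DET2 and ROT3 were not called (log2 differences 0.15 and 0.10). The 8 genes of sterol synthesis upstream of this pathway lay close to 0, with a median of -0.05, 1 higher in bzr1-1D and 2 higher with GA3. Without the deeper GA3 library the latter count was 0, and without the deeper bzr1-1D library it was 1. The former rests on DWF1 (0.17), which lost its call in 9 alternatives, with adjusted p up to 0.272.

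The enzymes that inactivate brassinosteroid went the other way. CYP734A1 (AT2G26710), the C-26 hydroxylase also known as BAS1, was at 644 and 646 normalized reads in bzr1-1D, 128 and 133 with GA3 and 286 and 292 with mock, a difference of 2.32 ± 0.10 (limma-voom adjusted p = 1.23e-08). The bzr1-1D libraries were highest, mock between and GA3 lowest, the mirror of DWF4. CYP72C1 differed by 1.39 and BEN1, a reductase family member, by 0.83. UGT73C5, which glycosylates brassinosteroid, was not called (0.16), so 3 of the 4 genes were higher in bzr1-1D and 0 with GA3.

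Transcripts of brassinosteroid perception and signalling differed less. The receptor gene BRI1 was not called (log2 difference 0.09). Of the relatives of BZR1, BES1, BEH1 and BEH2 were higher with GA3, and BEH3 (0.40) and BEH4 (-0.04) were not called. BES1 was at 968 and 1046 normalized reads in bzr1-1D, 1624 and 1565 with GA3 and 949.7 and 1031 with mock, a difference of -0.65 ± 0.07 (limma-voom adjusted p = 1.90e-05). BEH1 was at 77.4 and 90.9 normalized reads in bzr1-1D, 203 and 240.2 with GA3 and 98.9 and 100.1 with mock, a difference of -1.37 ± 0.14 (limma-voom adjusted p = 1.36e-05). In both, bzr1-1D and mock were close and the GA3 libraries stood above them. BEH2 differed by -0.56, and BIN2, the kinase that inactivates BZR1, by 0.28. In all, 3 of the 12 fitted genes of 13 were higher in bzr1-1D and 3 with GA3. The first count was 1 without the deeper GA3 library or the shallower bzr1-1D library, and 6 without the deeper bzr1-1D library. BSU1, a phosphatase that acts on BIN2, was below the minimum level, with 10 reads with GA3 and 38 in bzr1-1D (a ratio of 3.89, exact 95% interval 1.90 to 8.76 for counting error alone).

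Gibberellin synthesis showed the reverse arrangement. Of 10 genes 9 were fitted, and 6 were higher in bzr1-1D and 0 with GA3, with a median of 0.63. GA20OX2 (AT5G51810), a C-20 oxidase of the late pathway, was at 1918 and 2340 normalized reads in bzr1-1D, 147 and 124 with GA3 and 1453 and 1550 with mock. The GA3 libraries were lowest and mock and bzr1-1D were both high, and bzr1-1D differed from GA3 by 3.97 ± 0.14 (limma-voom adjusted p = 3.28e-09). GA20OX3 was at 270 and 328 normalized reads in bzr1-1D, 8.74 and 3.12 with GA3 and 179.9 and 195 with mock, with 14 reads in the GA3 libraries together. Its difference was 5.64 ± 0.45 (limma-voom adjusted p = 1.39e-06), and the ratio was 47.3 with an exact 95% interval of 28.0 to 87.0 for counting error alone. The difference was 6.37 without the deeper GA3 library and 5.03 without the shallower. GA20OX1 was at 74.7 and 92.8 in bzr1-1D and 10.3 and 5.20 with GA3 (log2 difference 3.38).

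GA3OX1 (AT1G15550), whose product makes the bioactive gibberellins, was at 1323 and 1494 normalized reads in bzr1-1D, 242 and 252 with GA3 and 906 and 882 with mock, a difference of 2.52 ± 0.09 (limma-voom adjusted p = 3.98e-09). The order of GA20OX2 held here too, with GA3 lowest and bzr1-1D highest. The early pathway differed less: GA3, the gene of ent-kaurene oxidase, by 0.63 and KAO2, an ent-kaurenoic acid oxidase, by 0.33. GA1, GA2 and KAO1 were not called. Of the 7 gibberellin 2-oxidases, which inactivate the hormone, 3 were fitted and all 3 were higher with GA3. GA2OX6 was at 119.7 and 101 normalized reads in bzr1-1D, 238 and 233 with GA3 and 67.3 and 82.4 with mock, a difference of -1.08 ± 0.13 (limma-voom adjusted p = 3.51e-05). GA2OX2 differed by -1.01 and GA2OX4 by -1.19. The call of GA2OX4 was lost without the deeper GA3 library or the deeper bzr1-1D library, with adjusted p up to 0.105 over all alternatives.

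**Figure D2:**
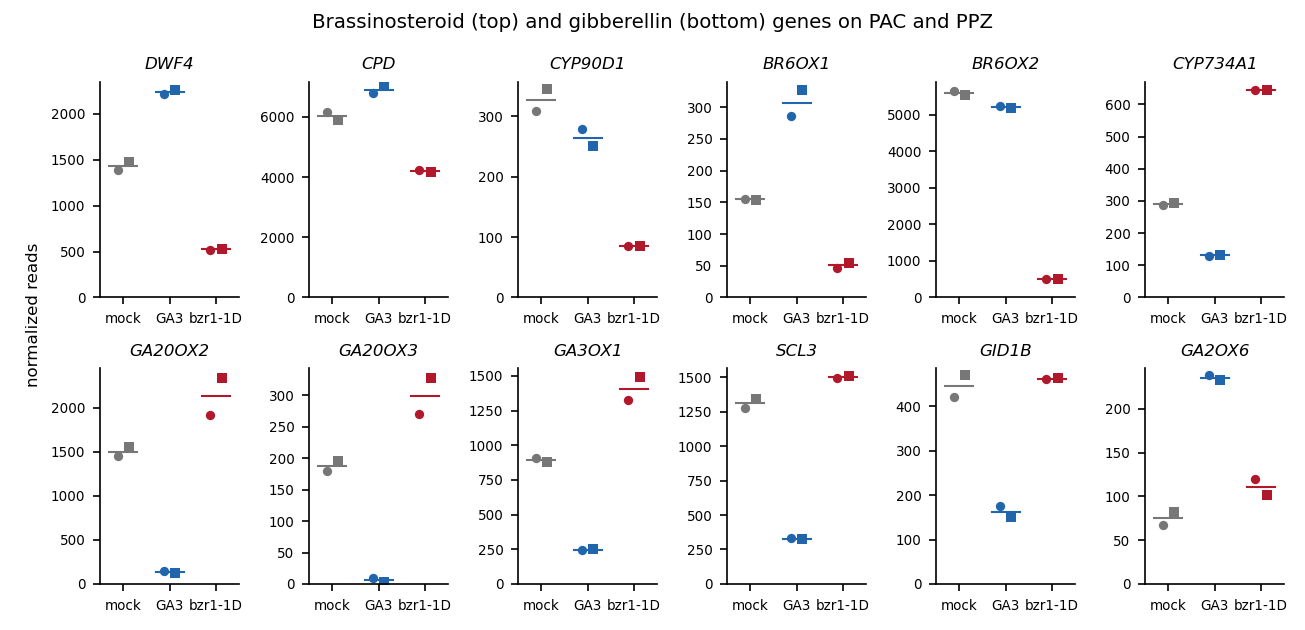
Normalized reads of 12 genes in the mock, GA3 and bzr1-1D groups on PAC and PPZ, with 1 panel a gene and axes from 0; circles are the deeper library, squares the shallower and bars the deposited group mean. BR6OX2 was low only in the bzr1-1D libraries of these 6, GA20OX2 only in the GA3 libraries, and DWF4 was in a different place in each group.

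The receptors, repressors and readouts of gibberellin perception separated by role. Of 10 genes, 4 were higher in bzr1-1D and 4 with GA3, and the median was -0.02, a value whose sign changed when 1 library was left out. The receptor gene GID1B was at 461 and 464 normalized reads in bzr1-1D, 176 and 149.8 with GA3 and 421 and 470.4 with mock, a difference of 1.51 ± 0.11 (limma-voom adjusted p = 7.14e-07). The other receptor genes gave 0.67 for GID1A and -0.09 for GID1C, and the latter was not called. SLY1, the F-box protein that marks DELLA proteins for destruction, differed by 0.73. SCL3, a GRAS factor whose transcript falls on gibberellin treatment, was at 1492 and 1508 normalized reads in bzr1-1D, 331 and 323 with GA3 and 1280 and 1339 with mock, a difference of 2.21 ± 0.07 (limma-voom adjusted p = 2.58e-09). For GID1B and SCL3 the GA3 libraries were low and bzr1-1D was close to mock or slightly above.

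DELLA genes themselves were mostly higher with GA3. RGA (AT2G01570) was at 1934 and 2092 normalized reads in bzr1-1D, 3325 and 3218 with GA3 and 1659 and 1721 with mock, a difference of -0.69 ± 0.07 (limma-voom adjusted p = 6.95e-06). GAI was at 764 and 893 normalized reads in bzr1-1D, 1231 and 1277 with GA3 and 593 and 582 with mock, a difference of -0.59 ± 0.08 (limma-voom adjusted p = 9.53e-05). The bzr1-1D libraries lay above mock in both and the GA3 libraries lay above bzr1-1D, with no overlap. RGL3 differed by -1.07, RGL2 was not called (0.06), and RGL1 (-0.29) lost its call in 8 alternatives, with adjusted p up to 0.259.

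The GASA genes, small cysteine-rich peptides often used as gibberellin reporters, did not move as a block. GASA6 (AT1G74670) was at 357 and 362 normalized reads in bzr1-1D, 1279 and 1475 with GA3 and 218 and 219.7 with mock, a difference of -1.91 ± 0.09 (limma-voom adjusted p = 2.46e-08). GASA1 (AT1G75750) was at 16310 and 21490 normalized reads in bzr1-1D, 6508 and 6535 with GA3 and 6956 and 6702 with mock, a difference of 1.54 ± 0.10 (limma-voom adjusted p = 3.98e-07). GASA6 was highest with GA3, with bzr1-1D between GA3 and mock, and GASA1 stood high in bzr1-1D alone of the 3 groups. GASA14 differed by 0.45. GASA2 and GASA3 are neighbours on the chromosome with similar sequences, so their reads may be split between them. GASA3 differed by 3.83 ± 0.43, and by 2.96 without the shallower GA3 library and 4.91 without the deeper. GASA2 had 26 reads in the deeper GA3 library and 0 in the shallower, and its difference ran from 1.71 to 7.06 as they were left out in turn. Of 9 genes 7 were fitted, 5 higher in bzr1-1D and 2 with GA3. GASA4, whose GA3 reads could not be resolved, had deposited means of 39280 in bzr1-1D, 37680 with GA3 and 22590 with mock, with no test.

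The small helix-loop-helix proteins and their partners form a chain in which PRE proteins promote growth by binding the restraining proteins IBH1, AIF and PAR, which otherwise disable growth factors such as HBI1. Members of each tier were split between the groups. Among 10 promoters of growth 7 were fitted, 2 were higher in bzr1-1D and 3 with GA3, with a median of -0.38. PRE6 (AT1G26945) was at 710.1 and 783 normalized reads in bzr1-1D, 299.5 and 309 with GA3 and 228 and 247 with mock, a difference of 1.31 ± 0.09 (limma-voom adjusted p = 3.40e-07). HBI1 (AT2G18300) was at 1256 and 1367 normalized reads in bzr1-1D, 2304 and 2585 with GA3 and 1373 and 1335 with mock, a difference of -0.88 ± 0.07 (limma-voom adjusted p = 2.38e-06). PRE6 was thus highest in bzr1-1D, and for HBI1 bzr1-1D lay beside mock with GA3 above.

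BEE1 was at 396 and 449 normalized reads in bzr1-1D, 197 and 223 with GA3 and 226 and 228 with mock, and BEE2 at 872 and 1006 normalized reads in bzr1-1D, 1709 and 1946 with GA3 and 1092 and 1100 with mock. Their differences were 1.03 ± 0.10 (limma-voom adjusted p = 8.57e-06) and -0.95 ± 0.08 (limma-voom adjusted p = 3.63e-06), so close relatives differed in opposite directions. BEE3 (-0.45) lost its call without the deeper bzr1-1D library, with an adjusted p of 0.0517. PRE5 was at 77.4 and 63.4 normalized reads in bzr1-1D, 85.0 and 101 with GA3 and 18.8 and 23.9 with mock and was not called (-0.37), with both groups above mock. PRE1 was below the minimum level, at 0.900 and 2.84 in bzr1-1D and 9.53 and 9.36 with GA3.

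Of the 9 restraining genes 6 were higher in bzr1-1D and 2 with GA3, with a median of 0.42. AIF2 was at 885 and 1038 normalized reads in bzr1-1D, 456 and 427 with GA3 and 599 and 548 with mock, a difference of 1.13 ± 0.09 (limma-voom adjusted p = 2.12e-06). AIF1 differed by 1.19 and PAR2 by 0.70, while AIF3 (-0.39) and HFR1 (-0.41), an atypical bHLH that binds PIF proteins, were higher with GA3. IBH1 was at 512 and 637 in bzr1-1D and 435 and 449 with GA3, and its call (0.38) was lost in 4 alternatives, with adjusted p up to 0.0943. In the PIF family 6 of 7 genes were fitted and 5 were higher in bzr1-1D and 0 with GA3, with a median of 0.46. PIF4, a main driver of hypocotyl elongation, was at 338 and 359.7 normalized reads in bzr1-1D, 194 and 258 with GA3 and 171 and 152 with mock, a difference of 0.67 ± 0.12 (limma-voom adjusted p = 9.32e-04). PIF6 was at 1481 and 1566 normalized reads in bzr1-1D, 688 and 652 with GA3 and 1396 and 1350 with mock, a difference of 1.2 ± 0.07 (limma-voom adjusted p = 1.39e-07). For PIF6 the GA3 libraries were lowest of the 3 groups, and for PIF4 the bzr1-1D libraries were highest. PIF3 differed by 0.54, and PIF1 was not called (0.06).

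Auxin-responsive genes of the SAUR family, small proteins that promote cell expansion by sustaining the plasma membrane proton pump, were mostly higher in bzr1-1D. Of 18 genes, all fitted, 16 were higher in bzr1-1D and 1 with GA3, and the median was 1.73. SAUR9 (AT4G36110) was at 193 and 240.4 normalized reads in bzr1-1D, 18.3 and 13.5 with GA3 and 29.8 and 54.9 with mock, a difference of 3.72 ± 0.35 (limma-voom adjusted p = 5.31e-06). SAUR16 was at 111 and 113 normalized reads in bzr1-1D, 29.4 and 22.9 with GA3 and 11.9 and 15.9 with mock, a difference of 2.08 ± 0.21 (limma-voom adjusted p = 1.14e-05). SAUR1 was at 379.8 and 423 normalized reads in bzr1-1D, 177 and 191 with GA3 and 215 and 177 with mock, a difference of 1.14 ± 0.11 (limma-voom adjusted p = 8.93e-06). In each the bzr1-1D libraries stood well above both others. SAUR15 differed by 1.86 and SAUR14 by 0.84.

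SAUR10 had 3 reads with GA3 and 83 in bzr1-1D, a ratio of 28.3 with an exact 95% interval of 9.37 to 140 for counting error alone. The neighbouring groups SAUR19 to SAUR24 and SAUR63 to SAUR68 are near-identical copies, so reads may be split among them. SAUR20 was at 126 and 147 normalized reads in bzr1-1D, 27.0 and 31.2 with GA3 and 19.6 and 19.5 with mock (log2 difference 2.23) and SAUR66 at 137 and 155 normalized reads in bzr1-1D, 35.8 and 35.4 with GA3 and 19.6 and 26.6 with mock (2.03). Only SAUR6 was higher with GA3, at 94.5 and 121 in bzr1-1D and 214 and 224 with GA3 (-1.02), and only SAUR50 was not called (0.15). The median difference from mock was 2.56 in bzr1-1D and 0.60 with GA3, from the same mock libraries.

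Promoter letters were read for the genes that differed, since BZR1 is known to bind CGTGTG and CGTGCG and shares CACGTG with the PIF factors. The window was the 300 bases before each gene's start in RefSeq TAIR10.1, searched on both strands. One or both of CGTGTG and CGTGCG were in 7.96% of the windows of all fitted genes (Wilson 95% interval 7.59 to 8.35%). The share was 8.14% of genes higher in bzr1-1D and 8.97% of genes higher with GA3, and 8.20% and 10.6% where the difference was at least 2-fold. CACGTG was in 8.20% of all windows, 12.4% (10.6 to 14.5%) of those at least 2-fold higher in bzr1-1D and 7.66% (6.13 to 9.54%) of those at least 2-fold higher with GA3. CATGTG, a related E-box added after the values were seen, was in 13.1% of all windows, 19.6% (17.4 to 22.1%) of those at least 2-fold higher in bzr1-1D and 13.8% (11.8 to 16.2%) of those at least 2-fold higher with GA3. These shares are descriptions with no test.

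None of the 7 windows of brassinosteroid synthesis genes and none of the 18 SAUR windows held any of the first 3 motifs, which says only that these letters are not in these windows. CATGTG was in 12 of the 18 SAUR windows and 4 of the 7 synthesis windows. Several of these SAUR genes are near-identical neighbouring copies, so their windows may not be independent of one another. The windows below are shown to place the motif letters before genes that differed in each direction. The first pair was chosen by lowest adjusted p among named genes whose window holds the BZR1 motif, and both genes were higher with GA3. In them the capitals mark CACACG, the reverse complement of CGTGTG, at 236 bases before the start for ACO4 (chr1:1433011-1433310, minus strand) and 194 for PSAK (chr1:10721883-10722182, plus strand). The second pair are SAUR genes chosen after the values were seen, and the capitals mark CATGTG or its reverse complement CACATG, at 197 bases before the start for SAUR9 (chr4:17089634-17089933, plus strand) and 36 for SAUR66 (chr1:10320711-10321010, plus strand).
ACO4: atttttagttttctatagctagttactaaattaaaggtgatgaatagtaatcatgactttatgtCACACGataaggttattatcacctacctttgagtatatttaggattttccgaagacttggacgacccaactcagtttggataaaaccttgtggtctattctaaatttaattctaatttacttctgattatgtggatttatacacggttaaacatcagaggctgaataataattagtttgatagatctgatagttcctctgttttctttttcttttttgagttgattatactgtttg
PSAK: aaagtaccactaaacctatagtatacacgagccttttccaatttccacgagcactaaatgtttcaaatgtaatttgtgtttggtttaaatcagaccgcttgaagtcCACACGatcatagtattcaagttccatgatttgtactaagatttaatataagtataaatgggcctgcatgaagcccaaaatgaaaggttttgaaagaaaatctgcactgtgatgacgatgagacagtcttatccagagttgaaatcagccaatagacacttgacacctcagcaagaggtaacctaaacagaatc
SAUR9: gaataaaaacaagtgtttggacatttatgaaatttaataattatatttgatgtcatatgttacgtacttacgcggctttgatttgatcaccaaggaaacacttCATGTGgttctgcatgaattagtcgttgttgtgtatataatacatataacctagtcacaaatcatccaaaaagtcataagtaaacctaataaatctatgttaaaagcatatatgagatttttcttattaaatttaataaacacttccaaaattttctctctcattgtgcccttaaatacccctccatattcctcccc
SAUR66: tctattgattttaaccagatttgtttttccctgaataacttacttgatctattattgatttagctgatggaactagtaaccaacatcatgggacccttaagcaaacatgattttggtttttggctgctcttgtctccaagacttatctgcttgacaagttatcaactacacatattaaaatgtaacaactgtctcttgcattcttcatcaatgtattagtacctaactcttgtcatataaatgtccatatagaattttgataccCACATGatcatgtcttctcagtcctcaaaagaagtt

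Aux/IAA genes, the early auxin-induced repressors, were mixed. Of 23 genes 22 were fitted, with 11 higher in bzr1-1D and 6 with GA3 and a median of 0.29. IAA19 (AT3G15540), a growth-related member, was at 307 and 409 normalized reads in bzr1-1D, 206 and 220.5 with GA3 and 46.0 and 59.4 with mock, a difference of 0.75 ± 0.14 (limma-voom adjusted p = 8.89e-04). IAA4 was at 3295 and 3055 normalized reads in bzr1-1D, 1699 and 1939 with GA3 and 1579 and 1619 with mock, a difference of 0.82 ± 0.07 (limma-voom adjusted p = 4.31e-06). IAA26 was at 959 and 858 normalized reads in bzr1-1D, 1538 and 1679 with GA3 and 1486 and 1477 with mock, a difference of -0.81 ± 0.07 (limma-voom adjusted p = 4.78e-06). IAA19 was above mock in both groups, whereas IAA26 was below mock in bzr1-1D and near it with GA3. IAA6 had 0 reads with mock and 8 reads with GA3 against 77 in bzr1-1D, a ratio of 9.86 (exact 95% interval 4.76 to 23.7 for counting error alone).

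Auxin conjugation and transport genes were divided. GH3.6, which conjugates auxin to amino acids, was at 904 and 1107 normalized reads in bzr1-1D, 1968 and 1865 with GA3 and 903 and 894 with mock, a difference of -0.92 ± 0.09 (limma-voom adjusted p = 5.83e-06). GH3.2 went the other way (0.77), and in all 1 of 6 fitted GH3 genes of 7 was higher in bzr1-1D and 3 with GA3. One of the 3, GH3.3 (-0.32), lost its call in 8 alternatives, with adjusted p up to 0.39, and the median of -0.14 was 0.05 without the deeper bzr1-1D library. Of 11 fitted transport genes of 12, 2 were higher in bzr1-1D, among them LAX3 (0.46). The 4 higher with GA3 included LAX1 (-0.50) and PIN7 (-0.42), auxin influx and efflux carriers, and ABCB19 (-0.21), which lost its call in 8 alternatives, with adjusted p up to 0.196.

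Single genes of ethylene synthesis lay far apart. ACS11 (AT4G08040), an ACC synthase, was at 3.6 and 4.73 normalized reads in bzr1-1D, 241 and 187 with GA3 and 88.7 and 72.6 with mock, a difference of -5.54 ± 0.48 (limma-voom adjusted p = 2.73e-06). With 9 reads in bzr1-1D and 483 with GA3, the ratio was 52.4 (exact 95% interval 27.4 to 115 for counting error alone). ACO4 (AT1G05010), an ACC oxidase whose window is printed above, was at 1763 and 1771 normalized reads in bzr1-1D, 4483 and 4628 with GA3 and 2026 and 1997 with mock, a difference of -1.35 ± 0.06 (limma-voom adjusted p = 2.53e-08). The GA3 libraries stood above mock and bzr1-1D for both genes. ACS2 was higher in bzr1-1D (2.1), at 37.8 and 37.9 against 7.94 and 9.36. Of 9 fitted genes of 13, 2 were higher in each group. Without the shallower GA3 library ETR2 lost its call (adjusted p = 0.0639) and the count for bzr1-1D was 1.

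Among jasmonate genes, 12 of 13 fitted, 1 was higher in bzr1-1D and 4 with GA3. Their median was -0.27, and 0.08 without the deeper GA3 library. VSP1, a vegetative storage protein, was at 9.00 and 19.9 normalized reads in bzr1-1D, 267 and 224 with GA3 and 194 and 185 with mock, a difference of -4.15 ± 0.33 (limma-voom adjusted p = 1.42e-06). VSP2, a near copy of VSP1, so that reads may be split between them, differed by -3.98, on 4 reads in bzr1-1D (a ratio of 18.8, exact 95% interval 7.05 to 70.7 for counting error alone). That difference was -3.33 without the deeper bzr1-1D library and -4.63 without the shallower. LOX2, a lipoxygenase of jasmonate synthesis, differed by -3.15, and the repressor gene JAZ9 by -1.23. For VSP1 the bzr1-1D libraries lay below both mock and GA3. The deeper and shallower GA3 libraries were apart for JAZ1, at 715 and 272, where bzr1-1D was at 338 and 365 and was not called. The single gene higher in bzr1-1D, JAZ6, lost its call without the shallower GA3 library (adjusted p = 0.11), and the count was 3 without the deeper GA3 library and 2 without the deeper bzr1-1D library.

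Expansins loosen the wall by disrupting cellulose contacts, and more of them were higher with GA3. Of 19 genes, all fitted, 10 were higher with GA3 and 4 in bzr1-1D, with a median of -0.27. EXPA2 (AT5G05290) was at 52.2 and 62.5 normalized reads in bzr1-1D, 299.5 and 348 with GA3 and 27.3 and 41.6 with mock, a difference of -2.47 ± 0.18 (limma-voom adjusted p = 6.94e-07). EXPA3 was at 1465 and 1668 normalized reads in bzr1-1D, 2930 and 3137 with GA3 and 757 and 747 with mock, a difference of -0.94 ± 0.07 (limma-voom adjusted p = 1.43e-06). EXPA8, with a strong rise over mock on both sides (log2 3.56 and 3.77 from the same mock libraries), was at 221 and 283 normalized reads in bzr1-1D, 252 and 346 with GA3 and 23.0 and 18.6 with mock. Its difference of -0.21 ± 0.15 (limma-voom adjusted p = 0.298) was not called. Thus GA3 stood far above bzr1-1D for EXPA2 and EXPA3, while the groups overlapped for EXPA8. EXPA1 was at 524 and 591 in bzr1-1D and 736 and 743 with GA3 (-0.40). Those higher in bzr1-1D were EXPA11 (0.71) and the expansin-like genes EXLB1 (1.35), EXLA3 (2.71) and EXLA1. EXLA1 was at 842 and 1036 normalized reads in bzr1-1D, 404 and 322 with GA3 and 257 and 281 with mock, a difference of 1.37 ± 0.12 (limma-voom adjusted p = 3.23e-06), and its reads may be split with EXLA3, a near copy.

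Xyloglucan endotransglucosylases, which cut and rejoin xyloglucan, divided by member. Of 22 genes, all fitted, 10 were higher in bzr1-1D and 5 with GA3, with a median of 0.22. XTH16 was at 641 and 701 normalized reads in bzr1-1D, 2534 and 2562 with GA3 and 477 and 485 with mock, a difference of -1.91 ± 0.07 (limma-voom adjusted p = 3.98e-09). XTH30 was at 2011 and 2524 normalized reads in bzr1-1D, 874 and 832 with GA3 and 571 and 608 with mock, a difference of 1.41 ± 0.10 (limma-voom adjusted p = 4.85e-07). XTH4 was at 12480 and 15600 normalized reads in bzr1-1D, 8156 and 8651 with GA3 and 3651 and 3848 with mock, a difference of 0.75 ± 0.09 (limma-voom adjusted p = 5.34e-05). The GA3 libraries stood alone above the rest for XTH16, and bzr1-1D stood highest for XTH30, while for XTH4 both were above mock. XTH5 differed by 1.80 and XTH19 by 1.56, against -2.52 for XTH6 and -1.01 for XTH17. TCH4 was at 891 and 513 in the GA3 libraries and 961 and 1141 in bzr1-1D, and its call (0.62) was lost without the shallower GA3 library or the shallower bzr1-1D library, with adjusted p up to 0.118.

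Cellulose synthases and xylem wall genes were slightly higher in bzr1-1D. Of 8 primary wall genes 5 were higher in bzr1-1D and 0 with GA3, and the differences of all 8 ran from 0.04 to 0.42. The count was 3 without either GA3 library, the shallower mock library or the shallower bzr1-1D library. CESA6 differed by 0.35 and KOR1, a membrane endoglucanase, by 0.39. Of 16 fitted secondary wall and lignin genes of 17, 11 were higher in bzr1-1D and 1, FAH1 (-0.48), with GA3. The cellulose synthases of the xylem wall, CESA4, CESA7 and CESA8, differed by 0.47, 0.54 and 0.53. Without the shallower GA3 library the count of 11 was 6.

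Aquaporins, the water channels of the plasma membrane (PIP) and vacuole (TIP), leaned to bzr1-1D, with 11 of 16 higher there, 4 higher with GA3 and a median of 0.42. PIP2;2 was at 8421 and 11100 normalized reads in bzr1-1D, 4419 and 4004 with GA3 and 4030 and 4181 with mock, a difference of 1.22 ± 0.11 (limma-voom adjusted p = 3.31e-06). TIP2;1 was at 10030 and 14370 normalized reads in bzr1-1D, 7996 and 7615 with GA3 and 2721 and 2398 with mock, a difference of 0.64 ± 0.13 (limma-voom adjusted p = 0.00199). PIP2;2 was close to mock with GA3, whereas TIP2;1 was above mock in both groups. PIP2;1 and PIP2;2 are near-identical neighbours and may share reads. PIP1;4 was higher with GA3 (-0.33), and the count of 4 was 2 without the deeper GA3 library.

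Several genes for surface lipids and most of those for cold and water stress were higher in bzr1-1D. CER6 (AT1G68530), the elongase of cuticular wax synthesis, was at 8407 and 10480 normalized reads in bzr1-1D, 2927 and 2912 with GA3 and 3114 and 3112 with mock, a difference of 1.70 ± 0.09 (limma-voom adjusted p = 6.98e-08). KCS1, another elongase, differed by 1.4, and 6 of 11 fitted wax and very-long-chain fatty acid genes of 12 were higher in bzr1-1D and 1, LTP1 (-0.42), with GA3. Their median was 0.30, and 0.17 without the shallower bzr1-1D library. COR47 (AT1G20440), a dehydrin, was at 8236 and 10170 normalized reads in bzr1-1D, 3031 and 3163 with GA3 and 2243 and 2345 with mock, a difference of 1.58 ± 0.09 (limma-voom adjusted p = 1.09e-07). LTI78 was at 1187 and 1154 normalized reads in bzr1-1D, 419 and 442 with GA3 and 588 and 548 with mock, a difference of 1.46 ± 0.07 (limma-voom adjusted p = 5.94e-08). The bzr1-1D libraries were far above the others for CER6, where GA3 was slightly below mock, and for COR47, where it was slightly above, and for LTI78 GA3 was below mock and bzr1-1D above. Of 10 fitted cold and ABA genes of 13, 9 were higher in bzr1-1D and 0 with GA3, with a median of 0.81. WSD1, a wax ester synthase below the minimum level, had 62 reads in bzr1-1D and 0 with GA3, at least 21.2-fold higher against a floor of 3 reads over both GA3 libraries.

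**Figure D3:**
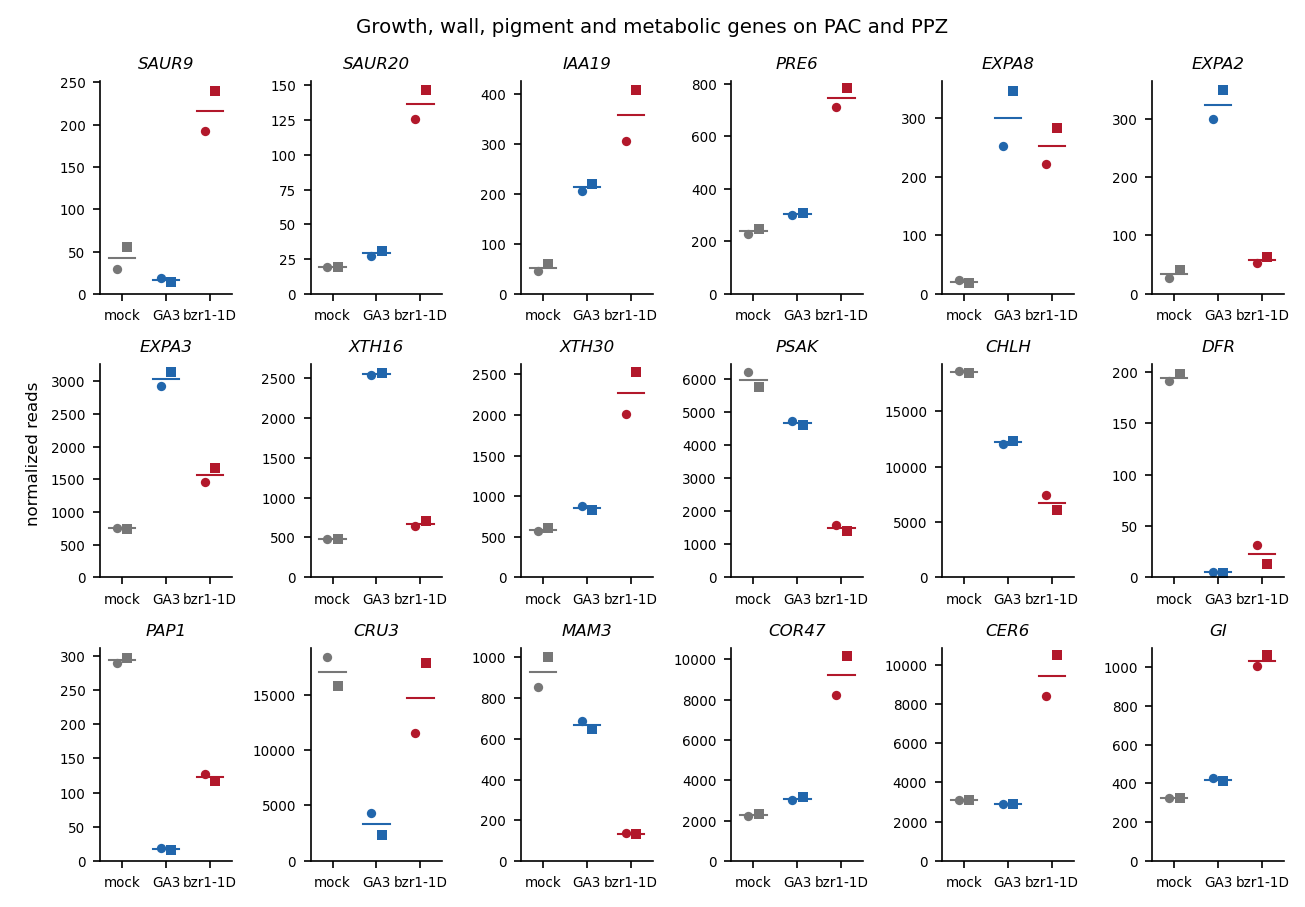
Normalized reads of 18 growth, wall, pigment and metabolic genes, drawn as in the plot of hormone genes with axes from 0; circles are the deeper library, squares the shallower and bars the deposited group mean. SAUR9 and CER6 stood high only in bzr1-1D, EXPA2 and XTH16 only with GA3, and EXPA8 overlapped between the groups above a low mock.

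Photosynthesis genes were lower in bzr1-1D nearly throughout. All 13 fitted genes of chlorophyll synthesis, of 14, were higher with GA3, with a median of -0.79, and so were 20 of the 21 fitted photosystem and Rubisco genes of 22, with a median of -0.90. GUN4 (AT3G59400), the activator of magnesium chelatase, was at 774 and 626 normalized reads in bzr1-1D, 1845 and 1912 with GA3 and 2737 and 2621 with mock, a difference of -1.42 ± 0.09 (limma-voom adjusted p = 2.57e-07). CHLH, the large subunit of that chelatase, was at 7406 and 6047 normalized reads in bzr1-1D, 12060 and 12300 with GA3 and 18580 and 18480 with mock, a difference of -0.85 ± 0.09 (limma-voom adjusted p = 9.70e-06). PSAK, a photosystem I subunit whose window is printed above, was at 1593 and 1399 normalized reads in bzr1-1D, 4725 and 4600 with GA3 and 6194 and 5740 with mock, a difference of -1.63 ± 0.08 (limma-voom adjusted p = 3.06e-08). In each, mock was highest, GA3 between and bzr1-1D lowest, with no overlap. PORA, the protochlorophyllide reductase of dark-grown seedlings, was among the 13, at 16840 and 13140 in bzr1-1D and 19400 and 18130 with GA3, and its call (-0.32) was lost in 5 alternatives, with adjusted p up to 0.168. The 1 photosystem gene not called was PSBS (-0.18).

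Of 18 fitted light-harvesting genes of 19, 16 were higher with GA3 and 1 in bzr1-1D, with a median of -0.73. LHCB1.4 was at 189.9 and 186 normalized reads in bzr1-1D, 1387 and 1338 with GA3 and 1985 and 1810 with mock, a difference of -2.84 ± 0.10 (limma-voom adjusted p = 2.49e-09). LHCB1.2 was the exception, at 4898 and 4674 normalized reads in bzr1-1D, 1846 and 1828 with GA3 and 3020 and 2742 with mock, a difference of 1.4 ± 0.07 (limma-voom adjusted p = 4.54e-08). LHCB1.1, LHCB1.2 and LHCB1.3 are near-identical copies and LHCB1.3 was unresolved, so the direction of LHCB1.2 is uncertain. ELIP1, an early light-induced protein, was at 127 and 129 normalized reads in bzr1-1D, 172 and 161 with GA3 and 1886 and 1930 with mock: both groups were far below mock, with a difference of -0.37 between them. PORB, RBCS1A and LHCB1.3, unresolved with GA3, had deposited means of 19890, 55990 and 37720 in bzr1-1D and 42370, 76080 and 63360 with GA3.

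The factors that promote greening differed in the same direction in part. GLK1 (AT2G20570), which activates photosystem genes, was at 260.1 and 278 normalized reads in bzr1-1D, 517 and 613 with GA3 and 436 and 404 with mock, a difference of -1.04 ± 0.10 (limma-voom adjusted p = 7.86e-06). HYH, a bZIP factor related to HY5, was at 63.9 and 52.1 normalized reads in bzr1-1D, 218 and 218 with GA3 and 422 and 425 with mock, a difference of -1.89 ± 0.15 (limma-voom adjusted p = 1.33e-06). GLK1 was below mock in bzr1-1D and above it with GA3, and HYH was below mock in both. GLK2 differed by -0.69 and HY5, the bZIP factor of light responses, by -0.75. Of 15 greening and light factors 7 were higher with GA3 and 3 in bzr1-1D (PHYA, PHYB and BBX21, by at most 0.26). The count of 3 was 0 without the deeper GA3 library and 1 without the shallower GA3 library or either mock library.

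The flavonoid genes described here were below mock on both sides, but by different amounts. The anthocyanin regulator PAP1 (AT1G56650), a MYB factor, was at 128 and 117 normalized reads in bzr1-1D, 18.3 and 16.6 with GA3 and 289.9 and 298 with mock, a difference of 2.79 ± 0.23 (limma-voom adjusted p = 2.16e-06). LDOX, a late enzyme, was at 50.4 and 40.7 normalized reads in bzr1-1D, 13.5 and 9.36 with GA3 and 286 and 288 with mock, a difference of 1.96 ± 0.31 (limma-voom adjusted p = 3.19e-04). DFR, another late enzyme, was at 31.5 and 13.2 normalized reads in bzr1-1D, 5.56 and 4.16 with GA3 and 191 and 198 with mock, and its difference of 2.00 ± 0.52 (limma-voom adjusted p = 0.00868) ran from 1.38 without the deeper bzr1-1D library to 2.60 without the shallower. For these 3 genes GA3 was lowest, bzr1-1D between and mock highest.

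Early enzymes were divided. CHS, chalcone synthase, was at 1423 and 1355 normalized reads in bzr1-1D, 2612 and 2343 with GA3 and 6831 and 6328 with mock, a difference of -0.82 ± 0.07 (limma-voom adjusted p = 4.43e-06). FLS1, flavonol synthase, was at 177 and 148 normalized reads in bzr1-1D, 303 and 282 with GA3 and 1037 and 993 with mock, a difference of -0.84 ± 0.11 (limma-voom adjusted p = 1.01e-04). For both, bzr1-1D was lowest and GA3 between. F3'H, a flavonoid hydroxylase, had the order of the late genes, at 224 and 218 normalized reads in bzr1-1D, 102 and 93.6 with GA3 and 315 and 299 with mock, a difference of 1.18 ± 0.12 (limma-voom adjusted p = 1.15e-05). In all, 13 of 17 genes were fitted, 6 were higher in bzr1-1D and 3 with GA3, with a median of 1.18. GSTF12, a glutathione transferase of anthocyanin transport, lost its call without the shallower GA3 library (adjusted p = 0.0618).

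Aliphatic glucosinolate genes had the lowest median of any list. Of 12 genes 8 were fitted, and 7 were higher with GA3 and 0 in bzr1-1D, with a median of -1.92. MAM3, which elongates the methionine side chain, was at 138 and 131 normalized reads in bzr1-1D, 688 and 647 with GA3 and 857 and 1003 with mock, a difference of -2.30 ± 0.12 (limma-voom adjusted p = 7.18e-08). MYB28, the main regulator of the pathway, was at 72.0 and 72.9 normalized reads in bzr1-1D, 216 and 248 with GA3 and 194 and 218 with mock, a difference of -1.65 ± 0.15 (limma-voom adjusted p = 3.67e-06). In both bzr1-1D was far below the wild-type libraries, and GA3 lay below mock for MAM3 and beside it for MYB28. BCAT4 differed by -2.51 and CYP83A1 by -2.19.

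Clock and cell cycle genes differed less as lists. Of 11 clock genes 3 were higher in bzr1-1D and 2 with GA3, and the latter count was 4 without the deeper bzr1-1D library. GI, a large nuclear protein of the evening loop, was at 1004 and 1061 normalized reads in bzr1-1D, 427 and 413 with GA3 and 323 and 325 with mock, a difference of 1.31 ± 0.07 (limma-voom adjusted p = 1.06e-07). LHY, a morning MYB factor, was at 643 and 646 normalized reads in bzr1-1D, 1182 and 1159 with GA3 and 1555 and 1598 with mock, a difference of -0.85 ± 0.07 (limma-voom adjusted p = 1.32e-06). GI was highest in bzr1-1D and LHY lowest there, and CCA1, the partner of LHY, was not called (-0.01). PRR7 differed by 1.27 and ELF4 by -1.33. Of 13 cell cycle genes 6 were higher with GA3 and 0 in bzr1-1D, led by the mitotic cyclins CYCB1;1 (-0.87) and CYCB1;2 (-0.78).

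**Figure D4:**
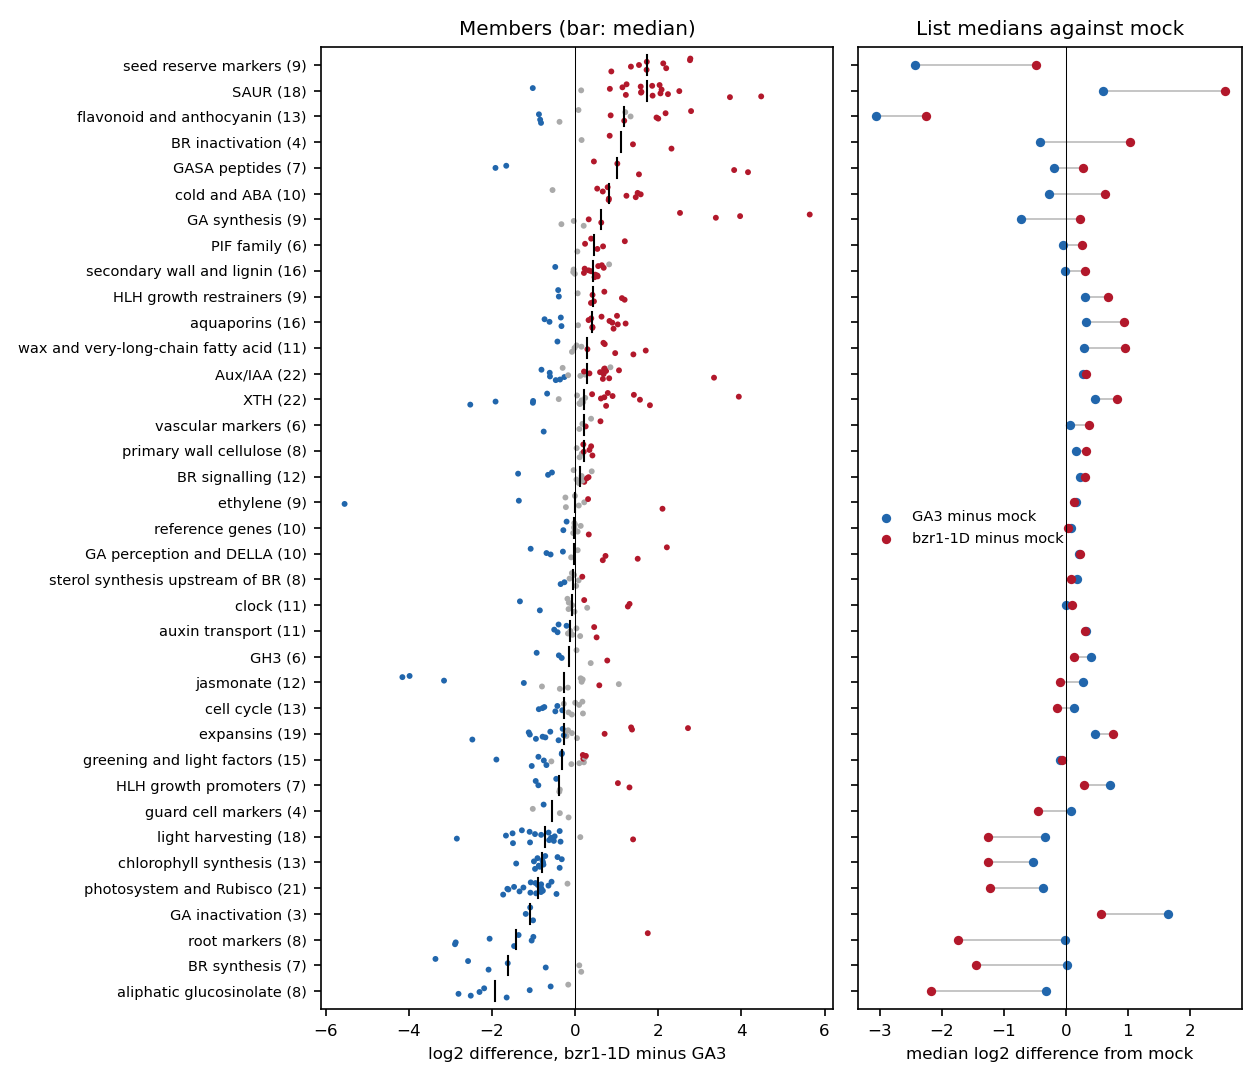
The left panel shows the log2 difference (bzr1-1D minus GA3) of each fitted member of 37 lists, with the number fitted in brackets, red where higher in bzr1-1D, blue where higher with GA3 and grey where not called, and a bar at the median. The right panel shows each list's median log2 difference from mock for GA3 and bzr1-1D, which share the mock libraries; list medians on the left run from -1.92 to 1.73.

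Markers of other tissues differed as well, and their part in the results above was not tested. All 9 seed reserve genes were higher in bzr1-1D, with a median of 1.73, and their summed group mean was 26009 normalized reads in bzr1-1D, 8331 with GA3 and 37897 with mock. CRU3, a cruciferin, was at 11550 and 17840 normalized reads in bzr1-1D, 4283 and 2359 with GA3 and 18390 and 15740 with mock, a difference of 2.19 ± 0.23 (limma-voom adjusted p = 1.55e-05). OLEO2, an oil body protein, was at 1549 and 1990 normalized reads in bzr1-1D, 321 and 199.7 with GA3 and 1401 and 1219 with mock, a difference of 2.77 ± 0.18 (limma-voom adjusted p = 3.11e-07). The GA3 libraries were lowest of the 3 groups, and in CRU3 and OLEO2 the deeper GA3 library was above the shallower. Without the deeper GA3 library the median of the list was 2.63 and 8 of the 9 were called. OLEO1 ran from 1.96 to 3.80 as the GA3 libraries were left out in turn.

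Of 10 root markers 8 were fitted, 7 were higher with GA3 and 1 in bzr1-1D. The root hair genes were low throughout, with PRP3 at 27.0 and 48.3 normalized reads in bzr1-1D, 133 and 179 with GA3 and 141 and 146 with mock (-2.06), and the one that was high, CASP1 of the endodermis, went the other way at 688 and 893 against 254 and 213 (1.75). The summed mean of the 10 was 896 in bzr1-1D and 601 with GA3, and NRT2.1 was at or near 0 in both. Of 4 fitted guard cell markers of 5, KAT1 was higher with GA3 (-0.76). That count of 1 was 2 without the shallower GA3 library and 3 without the deeper bzr1-1D library. The vascular markers gave -0.75 for the phloem gene SUC2 and 0.61 for the xylem gene XCP1, and 2 of 6 were higher in bzr1-1D (1 without either GA3 library or the shallower bzr1-1D library). Of 10 reference genes 1 was higher in bzr1-1D and 2 with GA3, all within -0.28 to 0.33, and the latter count was 0 without the shallower GA3 library and 1 without the deeper or either mock library. The former was 0 without the deeper GA3 library and 2 without the shallower bzr1-1D library.

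The most extreme differences were of another kind: genes read in one genotype and nearly absent from the other. By the rule of the 10 largest differences each way among abundant genes, AT1G24370 led toward bzr1-1D, with 1770 reads there and 2 with GA3, a ratio of 907 (exact 95% interval 251 to 7492 for counting error alone). AT1G48340, a pseudogene, had 361 reads in bzr1-1D and 0 with GA3, at least 123-fold higher against a floor of 3 reads over both libraries. The rest of the 10 were AT5G32460, AT1G24388, AT1G27570, AT5G35965, AT1G27580, the phosphate transporter gene PHT1;2 and the Sadhu retroelements SADHU5-2 and SADHU6-1. Toward GA3 the 10 included AT4G22485, with 24 reads in bzr1-1D and 3619 with GA3 (a ratio of 147, 98.8 to 230), the glutamate receptor gene GLR2.1, PP2-A8 and AT5G28145. AT5G28145 was at 32.4 and 36.9 normalized reads in bzr1-1D, 3656 and 3787 with GA3 and 4042 and 4012 with mock, a difference of -6.72 ± 0.17 (limma-voom adjusted p = 2.95e-10). For each of the 20 genes the mock group lay with the GA3 group.

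Counted over all 10 libraries, 16 genes had at least 30 reads in both bzr1-1D libraries and at most 3 in each wild-type library. By a limit that is not its exact mirror, 13 genes had at least 30 reads in each wild-type library and at most 3 over both bzr1-1D libraries together. These limits were chosen after the values were seen. Of the 29 genes 10 were on chromosome 1, 4 on chromosome 3 and 15 on chromosome 5, and 0 on chromosomes 2 and 4, where all fitted genes place 15.1% and 15.4%. Of the 256 genes called with at least 8-fold differences, 42.2% were on chromosome 5 and 29.3% on chromosome 1, against 23.4% and 26.2% of all fitted genes. These counts describe 1 mutant line, and the allele and other differences of that line cannot be told apart.

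Among genes with at least 30 reads in all 4 libraries, a few of the largest differences are given, also chosen after the values were seen. Other large ones were AT1G20390 (-6.20), AT5G57785 (-5.07) and SADHU1-2 (-4.83) toward GA3, and AT1G50290 (4.81) toward bzr1-1D. In each of these mock lay close to GA3, as for SADHU1-2 with deposited means of 32.8 in bzr1-1D, 954 with GA3 and 884 with mock. GPAT3, a glycerol-3-phosphate acyltransferase, was at 1597 and 2083 normalized reads in bzr1-1D, 119.9 and 78.0 with GA3 and 65.6 and 78.8 with mock, a difference of 4.21 ± 0.20 (limma-voom adjusted p = 3.70e-08). PRP2, a proline-rich wall protein, was at 3715 and 5002 normalized reads in bzr1-1D, 390 and 384 with GA3 and 205 and 171 with mock, a difference of 3.49 ± 0.13 (limma-voom adjusted p = 4.17e-09). Toward GA3, AT5G44440 was at 615 and 527 normalized reads in bzr1-1D, 25580 and 24600 with GA3 and 13150 and 12360 with mock, a difference of -5.44 ± 0.08 (limma-voom adjusted p = 3.44e-12). GPAT3 and PRP2 were highest in bzr1-1D, and AT5G44440 was highest with GA3 and lowest in bzr1-1D.

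CA1, the chloroplast carbonic anhydrase, was at 882 and 1114 normalized reads in bzr1-1D, 9322 and 9403 with GA3 and 8997 and 8793 with mock, a difference of -3.23 ± 0.09 (limma-voom adjusted p = 6.75e-10). TGG2, a myrosinase, which cleaves glucosinolates, was at 43.2 and 41.6 normalized reads in bzr1-1D, 856 and 904 with GA3 and 717 and 677 with mock, a difference of -4.34 ± 0.16 (limma-voom adjusted p = 4.07e-09). In both the bzr1-1D libraries stood apart from all wild-type libraries on these media. AT5G22580 had deposited means of 303 in bzr1-1D, 2277 with GA3 and 721 with mock, so that this gene was above mock with GA3 (log2 1.64) and below it in bzr1-1D (-1.26). LTP3, a lipid transfer protein, differed by 3.08.

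Each group was also set against mock. In each of the authors' deposited tables a share of genes had an adjusted p under 0.05. These were 7276 of 24621 genes tested in bzr1-1D against mock (29.6%) and 3269 of 24513 with GA3 against mock (13.3%). In limma-voom on the recovered reads the counts were 9636 (48.8%) and 5602 (28.3%) of 19762. Both contrasts use the same mock libraries, so neither is read as support for the other, and their values are only set side by side. The contrasts also differ in how long the allele and GA3 had been present, so their counts do not rank the signals. For BR6OX2 the log2 difference from mock was -3.48 in bzr1-1D and -0.12 (not called) with GA3, and for GA20OX2 it was 0.49 and -3.47. For DWF4 the values were -1.45 and 0.63, in opposite directions.

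For GA2OX6 the corresponding values were 0.56 in bzr1-1D and 1.64 with GA3, for IAA19 2.75 and 2.00, and for PRE6 1.65 and 0.34. Wall genes took all forms: EXPA3 gave 1.05 and 1.99, XTH16 0.48 and 2.39, and XTH30 1.93 and 0.52. For SAUR9 the values were 2.40 and -1.33, and for PSAK -2.00 and -0.37.

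The genes that differed between bzr1-1D and GA3 were then looked up in wild-type libraries of which none was on either side of that comparison. Adding PPZ, compared with PAC alone, called 23.8% of 19502 genes (12.2% higher, 11.6% lower). Among genes at least 2-fold higher in bzr1-1D than with GA3 and fitted in both (977), PPZ lowered 29.6% and raised 21.4%. Among genes at least 2-fold higher with GA3 (901), PPZ raised 32.3% and lowered 5.66%. The lean toward lowered genes on the bzr1-1D side was absent at 4-fold or more, where PPZ lowered 67 and raised 66 of 223 genes, and was larger over all genes higher in bzr1-1D, at 26.7% and 12.6%. On the GA3 side PPZ raised 95 and lowered 9 of 265 genes at 4-fold or more, and raised 19.8% and lowered 6.76% over all genes higher with GA3. Put the other way, 12.9% of the genes lowered by PPZ and 5.05% of all genes were at least 2-fold higher in bzr1-1D. Likewise 12.3% of the genes raised by PPZ and 4.65% of all genes were at least 2-fold higher with GA3.

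These shares moved when a library was left out, with the share of all genes. On the bzr1-1D side the raised share moved too. There the lean toward lowered genes was much smaller without the shallower PAC mock library and larger without the deeper. The 4644 genes called on adding PPZ were 2405 without the shallower and 2516 without the deeper PPZ mock library, and 7623 without the shallower PAC mock library. The 29.6% was 24.7% without the deeper PPZ mock library, where 5.58% of all genes were lowered, and 37.1% without the deeper PAC mock library, where 18.3% were. The 32.3% was 26.2% without the shallower PPZ mock library, where 6.96% of all genes were raised, and 38.6% without the shallower PAC mock library, where 19.0% were. The 5.66% was 2.17% without the shallower PPZ mock library and 13.1% without the shallower PAC mock library. The PPZ mock libraries also entered the fit of bzr1-1D against GA3, through the estimate of spread, the scaling and the minimum level for a gene to be fitted.

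Single genes followed both forms. On adding PPZ to mock-treated wild type, SAUR20 changed by -2.51 on the log2 scale, SAUR9 by -1.93, PRP2 by -3.31 and GPAT3 by -3.6, genes that were higher in bzr1-1D than with GA3. BR6OX2 changed by 1.70, MAM3 by 3.06 and MYB28 by 1.06, genes that were lower in bzr1-1D. CPD changed by -0.05 (not called) and CYP734A1 by -1.68.

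GA3 on PAC without PPZ called 31.2% of 19199 genes, 13.3% higher and 18.0% lower, and the authors' deposited table called 27.2% of 24020. It raised 21.6% and lowered 24.6% of the genes at least 2-fold higher in bzr1-1D, and raised 20.3% and lowered 17.9% of those at least 2-fold higher with GA3 on PPZ. At 2-fold or more on the bzr1-1D side the direction of the balance depended on the PAC mock libraries. Without the shallower PAC mock library more of these genes were raised than lowered. The balance also changed with the size of the difference. At 4-fold or more higher in bzr1-1D it raised 19.9% and lowered 41.3%, and over all genes higher there it raised 19.5% and lowered 18.2%. On the GA3 side it raised 18.0% and lowered 13.4% at 4-fold or more, and raised 15.6% and lowered 25.1% over all genes higher there. The 5995 calls were 3778 without the shallower library of GA3 on PAC. Without the deeper they were 2589, and the shares at 2-fold or more were 13.5%, 17.3%, 11.1% and 9.43%, beside 5.20% and 8.24% of all genes. The gibberellin genes were called there too: GA20OX2 changed by -2.80, GA3OX1 by -1.83, SCL3 by -2.04 and GA2OX6 by 1.81. EXPA2 changed by 3.96, XTH16 by 1.2, EXPA3 by 1.11 and HBI1 by 0.20 (not called), genes that were higher with GA3 than in bzr1-1D on PPZ.

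**Figure D5:**
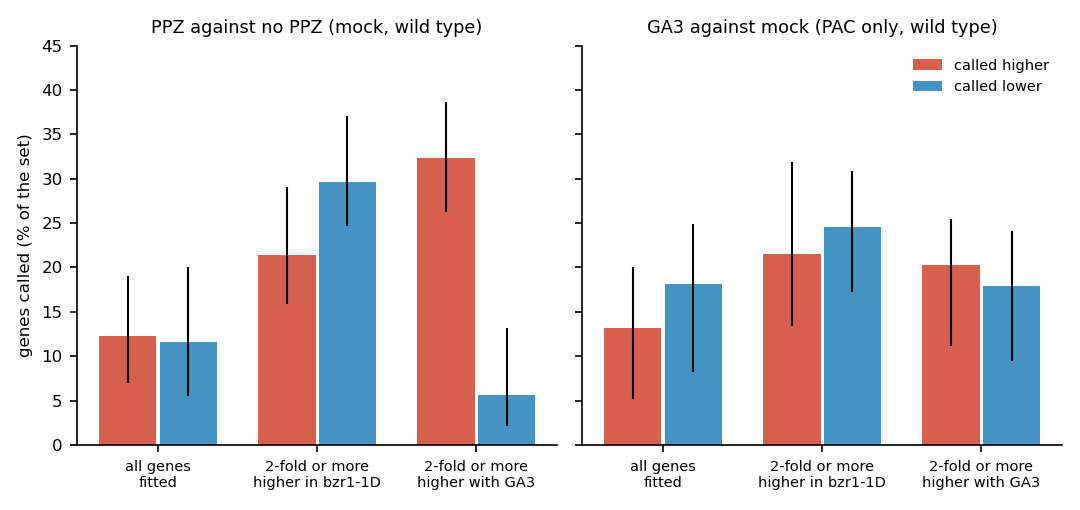
Percent of genes called higher or lower in wild-type libraries on adding PPZ (left) and on adding GA3 on PAC alone (right), for all genes fitted and for those at least 2-fold higher in bzr1-1D or with GA3 on PAC and PPZ. Black lines span the values when 1 library of that contrast is left out; on the left, PPZ lowered 29.6% of the first set and raised 32.3% of the second.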

How the data were processed

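RNA of 10 samples was sequenced (labels: a TruSeq RNA kit). The authors aligned with TopHat and tested with DESeq, per the submitters' processing notes, which give no versions. The genome build is not given in the sources used here. Each deposited value is a signal: the mean over a group's 2 libraries of reads per gene divided by size factors. Each deposited p-value and adjusted p-value is the authors' test of 1 group against another. Rows that name no gene (5) were left out; they held multiply aligned reads (8.61 to 10.7% per group), intergenic reads (1.47 to 1.58%) and ambiguous ones (1.34 to 1.47%).

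A deposited mean of 2 libraries is a sum of whole multiples of 2 fixed steps. From this the reads of each library were recovered for 99.9 to 100% of genes. Where several pairs of whole reads gave the same mean, the pair with the libraries closest together was kept if clearly closer than its rivals. For such genes closeness of the libraries was thus partly assumed, and their number was not counted. In the GA3 group 20 genes, all with means of at least 10221, stayed unresolved and were left out of the fit. For 103 bzr1-1D genes several solutions within 0.1 log2 remained and the middle one was taken, a rule added after the values were seen. Nothing ties the deeper or shallower library to a sample and its repeat. limma 3.58.1 (R 4.3.3) with voom weights and TMM scaling was fitted to the 6 libraries on PAC and PPZ, for genes whose mean normalized reads reached 10. PPZ in mock, and GA3 on PAC alone, were fitted separately. Reads were simulated with 100 genes changed 2-fold and 100 changed 4-fold, far fewer than were called in the data. On these reads the bzr1-1D against GA3 fit, run on 19676 genes, recovered 85% of 2-fold and 100% of 4-fold changes, with 15 false calls. Scaling where a large share of genes differ was not tried. Intervals for counts cover counting error only.

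The comparison and its gene lists (37 lists, 450 genes) were chosen with earlier results of these data known. Genes named are the 10 largest called differences each way among genes of at least 100 normalized reads in the higher group, up to 4 called members of each list in each direction by lowest adjusted p, and a panel of hormone and growth genes. The other genes named complete a count or were chosen after their values were seen. Promoter windows come from RefSeq TAIR10.1, whose gene table matched 32709 of 33518 gene IDs. Alternatives were another normalization, other minimum levels, limma-trend, other sets of libraries and leaving out each library.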

Additional observations from a re-analysis of the deposited data

How the results depend on the processing

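The 8272 genes called between bzr1-1D and GA3 were 6066 to 8182 with 1 library left out and 7213 to 8573 under median-of-ratios scaling, other minimum levels, limma-trend, or fits of 4 or 10 libraries. Adding the requirement of a 2-fold difference left 2053. Of 212 called named genes 184 kept their call under every alternative run, 28 lost it under at least 1, and 0 reversed. Without the deeper GA3 library 22 lost it, and without the shallower 19. The 300 list genes called were 276 to 302 under the alternatives that did not leave out a single library. Their number moved further, down as well as up, when 1 library was left out. The medians of 4 lists changed sign under at least 1 alternative (gibberellin perception, GH3, ethylene and jasmonate). That of jasmonate went from -0.27 to 0.08 without the deeper GA3 library. GA3 against mock on PPZ called 3269 genes in the authors' deposited table and 5602 in limma-voom. GA3 on PAC alone called 5995 genes, and 2589 to 8598 with 1 library left out; PPZ called 4644, and 2405 to 7623. The share of windows with a BZR1 motif was 6.47% (higher in bzr1-1D) and 6.98% (higher with GA3) for CGTGTG alone, and 10.6% for genes at least 2-fold higher with GA3. The cause of these shifts was not tested. The planned count tests on the recovered reads were not run, and limma-trend, added after the data were seen, took their place. No paired analysis was possible because the deposited columns are group means that carry no replicate number. The simulated fit recovered 85% of 2-fold changes, so a smaller difference that was not called is not shown to be absent.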
